A study of Mus musculus with 2 samples.

Results

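The adhesion genes described here are 37 integrin, selectin, immunoglobulin-like and junctional adhesion genes, measured by single-cell RNA-seq in the mouse meninges after Sham procedure or mild traumatic brain injury (TBI). They were chosen by symbol, and all 37 were found among the 32285 genes counted in each library. Male C57BL/6 mice (C57BL/6J in the study's methods), 10 weeks of age (the age is also given as 10-12 weeks), received a mild closed-skull TBI or a Sham procedure, and the dorsal meninges were collected 1 week later. The meninges of 5 mice per condition were pooled into 1 library, and the cells were sorted as live singlets, with no marker used to choose them. With 1 library per condition, mouse-to-mouse variation was not measured, so no test between Sham and TBI was possible and every interval given here covers counting error only. After filtering, 2043 cells remained in Sham and 3773 in TBI, with medians of 2764 and 2663 unique molecular identifiers (UMIs, 1 per captured RNA molecule) per cell. The libraries shared 20 cell barcodes, 14 of them among the cells kept.

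Leukocytes leave the blood in steps. Selectins on activated endothelium catch sugars on leukocyte glycoproteins such as PSGL-1 (Selplg), chemokines switch leukocyte integrins to a binding shape, the integrins hold on to ICAM and VCAM proteins on the vessel wall, and the cell passes through endothelial junctions built from cadherin, PECAM-1 and JAM proteins. An integrin is a pair of an alpha and a beta chain, and the pair decides whether it binds collagen, laminin, fibronectin-type ligands or another cell. The meninges hold vessels without a blood-brain barrier in the dura beside vessels with barrier features nearer the brain, and many resident leukocytes.

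Cells were grouped by clusters named from fixed marker genes, none of which was an adhesion gene of the set, and the adhesion genes took no part in the clustering. Sham and TBI were compared in 6 classes: macrophage-like (361 and 782 cells), dendritic-like (167 and 256), B-like (371 and 289), T- or ILC-like (265 and 380), endothelial-like (310 and 579) and fibroblast-like (66 and 446). A level is given as CPM, the UMIs of a gene per 1000000 UMIs of all cells of a class in 1 library. UMIs were counted at the 3′ end and are not scaled by gene length, so levels are compared between classes and not between genes. A count of 0 allows up to 3 UMIs, or 0.839 to 11.2 CPM in these classes. Of the 37 genes, 36 had a UMI in both libraries and 34 had at least 100 UMIs over both together. The exceptions to the latter were Itga7 (69 UMIs), Itgb6 (6 UMIs) and Sele (0 UMIs in Sham and 3 in TBI). By the mean of the Sham and TBI levels, 11 genes were highest in a leukocyte class, 11 in endothelial-like cells, 5 in pericyte-like cells, 5 in Schwann-like cells, 3 in fibroblast-like cells and 2 in choroid plexus-like cells, which are epithelium carried along with the meninges. The genes lie on 13 chromosomes of GRCm38. Chromosome 11 holds 7 of them and chromosome 9 holds 6, Itgal, Itgam and Itgax are all on chromosome 7, and Selp, Sele and F11r on chromosome 1.

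**Figure D1:**
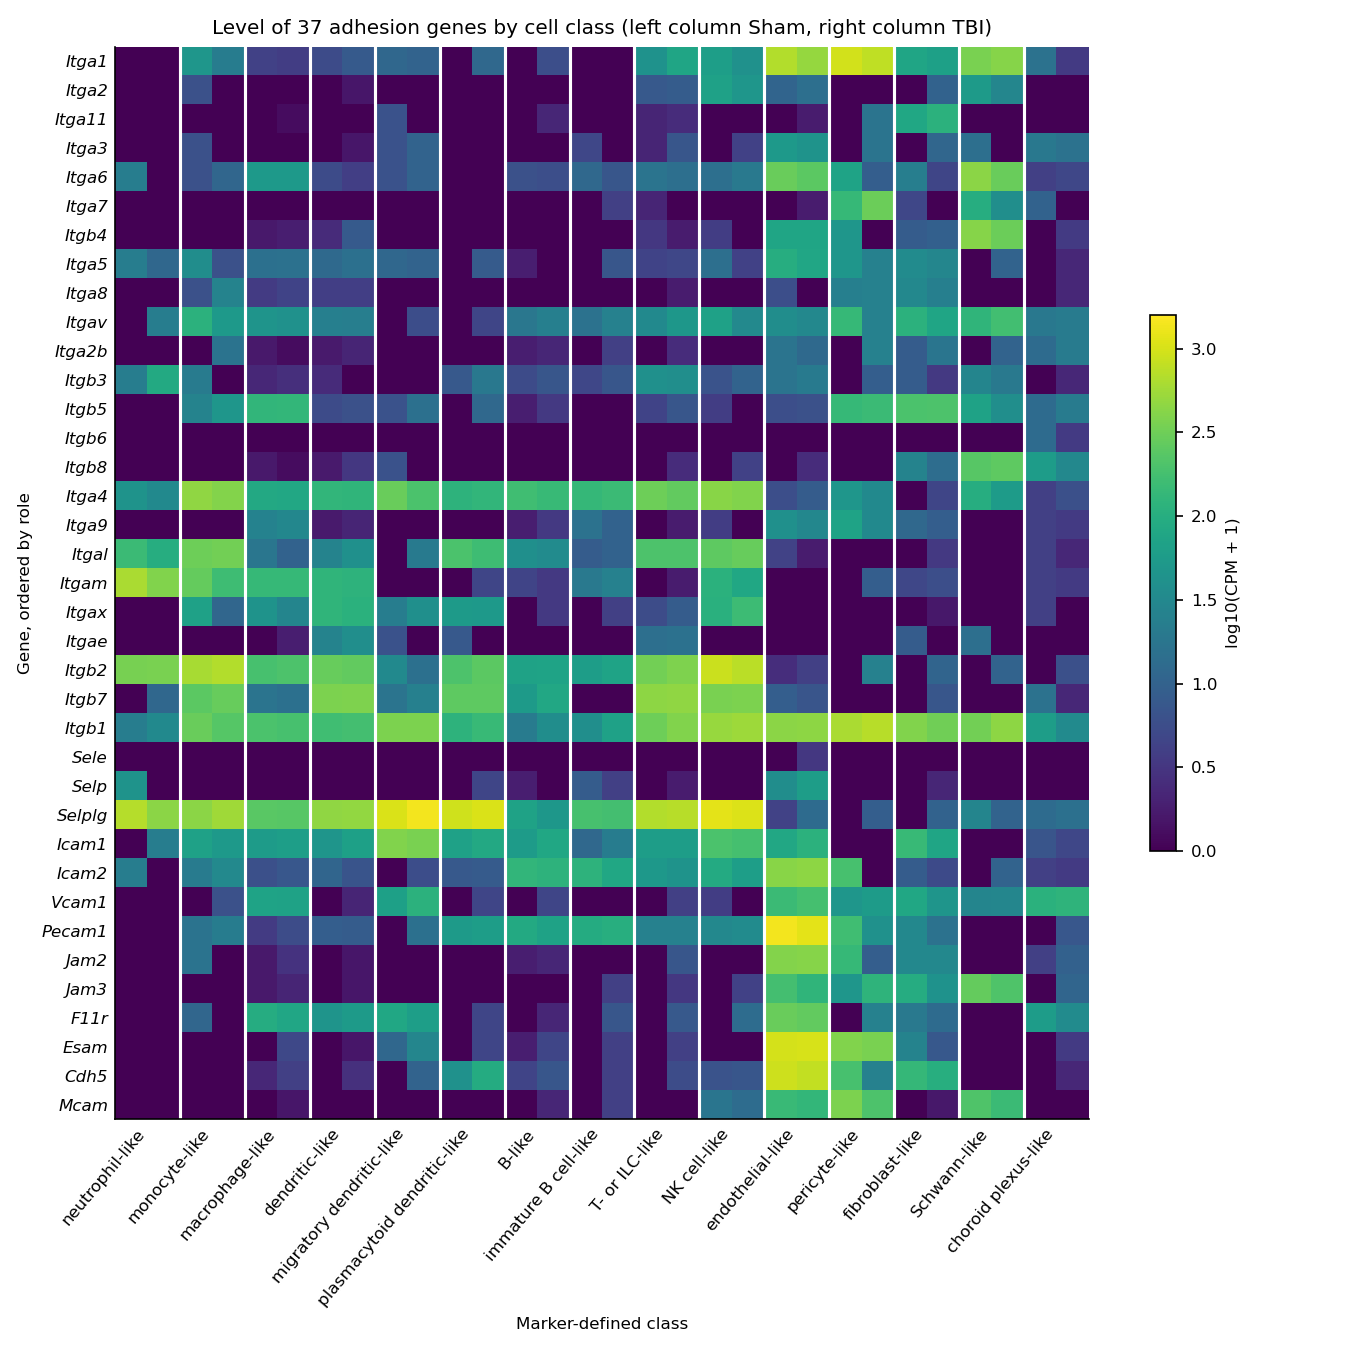
Level of each of the 37 adhesion genes, as log10(CPM + 1), in 15 marker-defined classes, with Sham in the left and TBI in the right column of each pair. Selplg is seen in each of the 10 leukocyte classes on the left, and leukocyte integrins are seen in some of them. Most junction genes peak in endothelial-like cells, as for Pecam1 (1378 and 1180.0 CPM), but Jam3 peaks in Schwann-like and Mcam in pericyte-like cells. The left and right columns of a pair look alike for most genes. Single faint squares rest on a few UMIs.

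The leukocyte integrins were divided between leukocyte classes by their alpha chains. Itgb2 encodes the beta-2 chain shared by LFA-1, Mac-1 and CD11c integrins, and it was highest in NK cell-like cells, at 879 CPM in Sham and 735 CPM in TBI. Levels of Itgb2 were 606 and 674 CPM in Sham and TBI monocyte-like cells, 326 and 376 CPM in T- or ILC-like cells, 283 and 267 CPM in dendritic-like cells and 186 and 202 CPM in macrophage-like cells. B-like cells were lower, at 68.7 and 71.9 CPM, and endothelial-like cells held 1 Itgb2 UMI in Sham and 4 in TBI. All 6 of these leukocyte classes exceeded the endothelial-like class in Itgb2 in both libraries.

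Among its partners, Itgal, the alpha chain of LFA-1, which binds ICAM proteins, was at 311 and 329 CPM in Sham and TBI monocyte-like cells, 252 and 289 CPM in NK cell-like cells and 200.0 and 199.9 CPM in T- or ILC-like cells. It was near the bottom of the range in macrophage-like cells (17.2 and 9.22 CPM). Itgam, the alpha chain of the complement receptor Mac-1, was highest in neutrophil-like cells, at 629 CPM in Sham and 388 CPM in TBI, with 279.7 and 162 CPM in monocyte-like cells, 138 and 138 CPM in macrophage-like cells and 124 and 117 CPM in dendritic-like cells. NK cell-like cells held Itgam at 111 and 80.7 CPM, and T- or ILC-like cells held 0 Itgam UMIs in Sham and 1 in TBI. Itgax (CD11c), a usual marker of dendritic cells, was at 105 and 155 CPM in NK cell-like and 121 and 108 CPM in dendritic-like cells, and which of the pair was higher differed between Sham and TBI. Neutrophil-like cells numbered 16 and 26, and monocyte-like cells 36 and 42, so their levels have wide counting intervals: the interval for Itgam in neutrophil-like cells ran from 421 to 903 CPM in Sham and from 272 to 538 CPM in TBI.

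Itga4, the alpha chain of VLA-4 and of the gut-homing integrin with beta-7, was broad. Its levels were 461 CPM in Sham and 407 CPM in TBI in monocyte-like cells, 429 and 394 CPM in NK cell-like cells and 307 and 269 CPM in T- or ILC-like cells. B-like cells (163 and 142 CPM), dendritic-like cells (126 and 122 CPM) and macrophage-like cells (84.2 and 81.6 CPM) followed, and endothelial-like cells were at 4.86 and 7.58 CPM. Itgb7, the beta chain that pairs with Itga4 or Itgae, was highest in T- or ILC-like cells at 454 and 469 CPM, with 374 and 378 CPM in dendritic-like and 354 and 366 CPM in NK cell-like cells. Macrophage-like cells were far lower in Itgb7, at 16.0 and 14.0 CPM. Itgae (CD103), which pairs with beta-7 to bind E-cadherin, was measured in dendritic-like cells at 26.0 and 37.3 CPM and in T- or ILC-like cells at 13.8 and 14.5 CPM. Itga9, a VCAM-1 and tenascin-binding chain related to Itga4, was low throughout the leukocytes, with 24.9 and 29.6 CPM in macrophage-like cells, a level close to the 38.9 and 29.6 CPM of endothelial-like cells.

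The 3 parts of the T- or ILC-like class used different chains. In the cluster led by Trbv13-2 and Cd3d, named from T cell markers, Itgb1 was at 449.8 and 568 CPM and Itga4 at 349.8 and 279 CPM in Sham and TBI. In the cluster led by Rnf128 and Gata3, named from group 2 innate lymphoid markers, Itgb1 was at 84.8 and 67.7 CPM, while Itgb7 was at 527 and 604 CPM against 387 and 383 CPM in the T cell cluster. Itga4 was there at 276 and 316 CPM, below the T cell cluster in Sham and above it in TBI. The small cluster led by Trdv4 (14 and 31 cells) had 792 and 726 CPM of Itgb7 and 64.2 and 119 CPM of Itgae, but 0 Itga4 UMIs in Sham and 1 in TBI. The Sham level of Itgae is that of 3 UMIs, which is the floor in this cluster. Since the clusters were made from the same cells, these differences between them are a description. Except for Itga4 between the T cell and innate lymphoid clusters, they were present in both libraries. Itgb3 in the innate lymphoid cluster, the beta-3 chain of platelet and vitronectin receptors, was at 53.0 and 95.9 CPM, above the 27.8 and 16.4 CPM of the T cell cluster.

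Both chains of an integrin were often found in the same cell. UMIs of Itgam and Itgb2 were found together in 37.1% of cells in Sham and 31.2% in TBI among dendritic-like cells and in 20.5% of cells in Sham and 22.8% in TBI among macrophage-like cells. Itgal and Itgb2 were found together in 27.2% of cells in Sham and 31.1% in TBI among T- or ILC-like cells. For Itga4, the beta chain most often found with it differed by class. In T- or ILC-like cells Itga4 was found with Itgb7 in 27.9% of cells in Sham and 32.1% in TBI, and with Itgb1 in 24.2% of cells in Sham and 27.9% in TBI. The same chain was found with Itgb1 in 16.9% of cells in Sham and 16.6% in TBI among macrophage-like cells, and with Itgb7 in 1.94% of cells in Sham and 1.66% in TBI. Itgb7 itself was found in 60.4% of T- or ILC-like cells in Sham and 72.4% in TBI, against 3.60% and 3.07% of macrophage-like cells. The shares with both chains therefore do not by themselves show a choice of partner within a cell. Such shares depend on depth, and the median depth of dendritic-like cells (9482 and 7049.5 UMIs) was above that of macrophage-like cells (2250 and 3917.5 UMIs). With each cell thinned to 1000 UMIs, 26.6% of T- or ILC-like cells in Sham and 27.4% in TBI held an Itgb2 UMI, against 54.0% and 61.1% without thinning. In endothelial-like cells, a class that should lack Itgb2, the thinned shares were 0.418% and 0.208% and the unthinned ones 0.323% and 0.691%, at median depths of 1804 and 1984 UMIs against 3249 and 3166 UMIs in the T- or ILC-like cells. For 0 of the 37 genes, in any of the 6 classes, did the intervals of the thinned shares lie apart between Sham and TBI. The same count was not made over all genes, so the 0 does not show that the adhesion genes were unchanged. Thinning left 50 Sham and 410 TBI fibroblast-like cells.

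Selectins were rare and mostly endothelial. Selp (P-selectin), which is stored in endothelial granules and moved to the surface on activation, was at 35.6 CPM (95% interval 22.3 to 54.0, 22 UMIs) in Sham and 59.9 CPM (95% interval 47.4 to 74.7, 79 UMIs) in TBI in endothelial-like cells. These were 22 of the 28 Selp UMIs of the Sham library and 79 of the 85 of the TBI library. Sele (E-selectin), which endothelium makes anew when activated, had 0 UMIs in 310 Sham endothelial-like cells, which allows a level of up to 4.86 CPM (3 UMIs), and 3 UMIs, each in a different cell, in 579 TBI endothelial-like cells (2.27 CPM), so no difference in Sele was detectable at this depth. Selplg (PSGL-1), the leukocyte ligand of these selectins, was at 1047 CPM in Sham and 1381 CPM in TBI in migratory dendritic-like cells, 1175 and 1083 CPM in NK cell-like cells, 942 and 1039 CPM in plasmacytoid dendritic-like cells and 678 and 720.3 CPM in T- or ILC-like cells. It was lower in dendritic-like (463 and 479.8 CPM) and macrophage-like cells (239 and 232 CPM) and lowest among the 4 compared leukocyte classes in B-like cells (67.8 and 48.7 CPM).

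The windows before the start sites of the vascular genes Icam1, Selp and Sele are printed because these are genes that endothelium is known to switch on or expose when activated. They are the 250 bases before the annotated start on the plus strand, from RefSeq on GRCm38.p6, at chr9:21015690-21015939, chr1:164115014-164115263 and chr1:164047984-164048233. The promoter table matched 22 of the 37 genes, and Vcam1 and Icam2 were not among them. Capitals mark 2 motifs, both chosen with the sequences in view and searched on both strands: GGANNTTCC, the letters of a kappa B-type site, and TATAAA.
Icam1: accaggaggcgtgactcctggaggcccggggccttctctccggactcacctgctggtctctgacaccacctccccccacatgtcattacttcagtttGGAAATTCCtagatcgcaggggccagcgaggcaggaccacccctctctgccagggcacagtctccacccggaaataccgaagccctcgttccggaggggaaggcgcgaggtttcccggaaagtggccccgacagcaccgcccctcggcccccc
Selp: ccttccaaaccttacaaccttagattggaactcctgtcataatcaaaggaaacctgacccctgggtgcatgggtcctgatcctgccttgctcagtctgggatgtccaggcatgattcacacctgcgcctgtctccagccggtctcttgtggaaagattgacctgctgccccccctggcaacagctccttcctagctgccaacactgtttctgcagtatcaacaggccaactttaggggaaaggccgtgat
Sele: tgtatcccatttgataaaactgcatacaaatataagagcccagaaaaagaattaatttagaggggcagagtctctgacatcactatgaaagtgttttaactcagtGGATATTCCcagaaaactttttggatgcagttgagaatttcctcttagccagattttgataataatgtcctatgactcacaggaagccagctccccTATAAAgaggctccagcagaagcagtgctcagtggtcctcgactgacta

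GGANNTTCC was found 1 time in the Icam1 window and 1 time in the Sele window, and is held by 3.59% of the 32851 promoter windows of this length. TATAAA was found 1 time in the Sele window and is held by 12.4% of all windows. The 2 motifs do not overlap, and neither set of letters was found in the Selp window.

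The counter-receptors of leukocyte integrins were spread over vessels, stroma and leukocytes. Vcam1, the ligand of VLA-4, was at 151 CPM (95% interval 122 to 185, 93 UMIs) in Sham and 180.5 CPM (95% interval 158 to 205, 238 UMIs) in TBI in endothelial-like cells, 111 and 118 CPM in choroid plexus-like cells and 71.5 and 67.9 CPM in macrophage-like cells. T- or ILC-like cells held 0 Vcam1 UMIs in Sham and 4 in TBI. Icam1, the ligand of LFA-1 and Mac-1, was highest in migratory dendritic-like cells (386 and 356 CPM) and NK cell-like cells (194 and 179.9 CPM), and was at 82.6 and 114 CPM in endothelial-like and 142 and 75.0 CPM in fibroblast-like cells. Icam2, a ligand of LFA-1 made by resting endothelium, was at 423 and 447 CPM in endothelial-like cells and 127 and 116 CPM in B-like cells. Of these 3 genes, Icam1 was the one whose highest class was not endothelial.

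Most junctional genes marked the endothelium, with a few second sites. Pecam1 (CD31) was at 1378 CPM (95% interval 1287 to 1474, 851 UMIs) in Sham and 1180.0 CPM (95% interval 1122 to 1240.1, 1556 UMIs) in TBI in endothelial-like cells, Esam at 974 and 1000.2 CPM, Cdh5 (VE-cadherin, the adhesive core of endothelial junctions) at 891 and 795 CPM and Jam2 at 407 and 420.1 CPM. Pericyte-like cells (23 and 72 cells) also held Esam, at 396 and 354 CPM, and were highest in Mcam (CD146), at 373 and 201 CPM. Pecam1 was present at lower level in immature B cell-like (93.3 and 101 CPM) and B-like cells (88.1 and 69.4 CPM). F11r (JAM-A) was at 292 and 270.0 CPM in endothelial-like and 94.4 and 76.9 CPM in macrophage-like cells, and Jam3 was highest in Schwann-like cells (276 and 205 CPM), the glia of meningeal nerves.

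Outside the endothelium, Cdh5 had most UMIs in fibroblast-like cells, at 135 CPM (95% interval 94.4 to 187, 36 UMIs) in Sham and 101 CPM (95% interval 85.8 to 117, 165 UMIs) in TBI. A Cdh5 UMI was found in 20 of 66 fibroblast-like cells in Sham and in 107 of 446 in TBI, against 2 of 361 and 9 of 782 macrophage-like cells, which should lack it (median depths 3591.5 and 3018 UMIs in fibroblast-like cells, 2250 and 3917.5 UMIs in macrophage-like cells). Of the fibroblast-like cells with Cdh5, 18 in Sham and 100 in TBI had no UMI of Pecam1 or Esam, and 0 and 6 of these were predicted doublets. In those cells the 18 fixed endothelial markers summed to 81.1 and 118 CPM, with 2 and 11 of the 18 at 1 UMI or more, against 25742 and 24308 CPM in endothelial-like cells, while the fibroblast markers summed to 44615 and 33523 CPM. These cells were picked for lacking Pecam1 and Esam, so their low endothelial sum is partly set by that choice. Over all fibroblast-like cells with Cdh5 the endothelial markers summed to 1695 and 800 CPM, against 28.4 and 127 CPM in those without it. Predicted doublets were 1 of 20 and 10 of 107 cells with Cdh5, and 5 of 46 and 5 of 339 cells without it. At a finer clustering (resolution 1.6 in place of 0.8), Cdh5 was at 169 and 128 CPM in the fibroblast cluster led by Myoc, 214 and 122 CPM in the unnamed cluster led by Ptgds and Prg4, and 65.0 and 44.6 CPM in the fibroblast cluster led by Gpx3 and Comp. Plasmacytoid dendritic-like cells also held Cdh5, in 6 of 20 cells in Sham and 18 of 45 in TBI (40.7 and 91.8 CPM), with at most 2 UMIs in a cell. Their endothelial markers summed to 88.1 and 121 CPM.

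Most genes of integrins that bind matrix were highest in vessel, stroma or nerve classes. By the mean of both libraries, Itga2 and Itgb3 were highest in leukocyte classes, and Itga2b and Itgb6 in choroid plexus-like cells. Itgb1, the beta chain that most integrins binding matrix share, was highest in pericyte-like cells at 629 CPM in Sham and 716 CPM in TBI, with 436 and 452 CPM in endothelial-like, 393 and 316 CPM in fibroblast-like and 331 and 448 CPM in Schwann-like cells. NK cell-like cells were second in Itgb1 by the mean of both libraries (520 CPM), and T- or ILC-like cells also held it, at levels given below. Itgb1 was lowest among the 6 compared classes in B-like cells, at 20.3 and 36.5 CPM. The collagen receptor chain Itga1 was at 955 and 773 CPM in pericyte-like, 677 and 499 CPM in endothelial-like and 359 and 420.2 CPM in Schwann-like cells. Pelo lies inside Itga1 on the same strand, so reads of the pair could be assigned to either gene. Itga11 was at 78.6 and 113 CPM in fibroblast-like cells, with 0 and 1 UMI in endothelial-like cells, and Itga2 was highest in NK cell-like cells (66.4 and 46.5 CPM), with 55.2 and 28.0 CPM in Schwann-like cells (4 and 3 UMIs) and 9.72 and 13.6 CPM in endothelial-like cells.

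Of the laminin receptors, Itga6 and Itgb4, which pair to anchor cells to basement membrane, were highest in Schwann-like cells (35 and 46 cells), at 441 and 289 CPM for Itga6 and 414 and 299 CPM for Itgb4. Endothelial-like cells held 295 and 245 CPM of Itga6 and 74.5 and 74.3 CPM of Itgb4. Itga6 overlaps the counted genes Gm13663 and Gm13662 on the same strand. Itga7, the muscle laminin receptor chain, was highest in pericyte-like cells at 139.7 CPM (95% interval 51.3 to 304, 6 UMIs) in Sham and 306 CPM (95% interval 216 to 419.7, 38 UMIs) in TBI. Its 38 UMIs in TBI against 6 in Sham came from 72 and 23 cells, and these intervals overlapped. Itga3 was at 53.5 and 42.5 CPM in endothelial-like cells. The receptors for fibronectin, vitronectin and latent TGF-beta differed in class. Itgb5 was at 195 and 199 CPM in fibroblast-like and 125 and 130.0 CPM in macrophage-like cells, Itgav, highest by the mean of both libraries in Schwann-like cells at 124 and 168 CPM, was at 112 and 75.0 CPM and 44.0 and 40.8 CPM in these classes, and Itga5 was at 97.2 and 76.6 CPM in endothelial-like cells. Itgb8, the chain that lets alpha-v release TGF-beta, was highest in Schwann-like cells (234 and 252 CPM) and next in choroid plexus-like cells (57.0 and 30.5 CPM). Itgb3 was at 39.1 and 36.6 CPM in T- or ILC-like cells and at 21.7 and 86.3 CPM in neutrophil-like cells (1 and 8 UMIs), and Itga2b, its platelet partner, stayed at or under 24.1 CPM in every named class and library. Itga8 was at 29.9 and 23.2 CPM in fibroblast-like cells, and the 6 UMIs of Itgb6, an epithelial chain, were all in choroid plexus-like cells.

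The 4 clusters of endothelial-like cells carried different mixes of the adhesion genes. They were led by Gpihbp1 and Igfbp3 (194 cells in Sham and 304 in TBI), Sema3g and Gja5 (47 and 90), Vwf and Slco2a1 (56 and 144), and Slc38a5 and Slco1a4 (13 and 41), the last with barrier genes such as Cldn5 among its leading genes. As the cells were clustered on their own expression, the levels are a description. Selp was highest in the Vwf-led cluster, at 161 CPM (96.8 to 251, 19 UMIs) in Sham and 177 CPM (137 to 225, 66 UMIs) in TBI, against 8.02 and 7.42 CPM in the Gpihbp1-led cluster. The Slc38a5-led cluster held 0 Selp UMIs in Sham, which in its 13 cells allows a level of up to 98.6 CPM, and 7 in TBI.

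Vcam1 and Icam1 were highest in the Slc38a5-led cluster. Vcam1 was there at 1840.3 and 826 CPM in Sham and TBI, against 237 and 305 CPM in the Vwf-led, 95.2 and 114 CPM in the Sema3g-led and 0 and 17.8 CPM in the Gpihbp1-led cluster. The Sham value rested on 1 cell, which held 40 of the 56 UMIs, and in TBI the highest cell held 23 of 94. By cells with a UMI, Vcam1 was found in 5 of 13 and 21 of 41 cells of that cluster, and in 0 of 194 and 4 of 304 cells of the Gpihbp1-led cluster, at median depths of 2217 and 2720 against 1814 and 1956 UMIs. Icam1 was at 493 and 509.7 CPM in the Slc38a5-led cluster, 127 and 185 CPM in the Vwf-led cluster and 48.1 and 23.8 CPM in the Gpihbp1-led cluster. In the Slc38a5-led cluster 1 Sham cell held 11 of the 15 Icam1 UMIs, and 1 TBI cell held 20 of the 58. Cells with an Icam1 UMI were 4 of 13 and 13 of 41 there, against 12 of 56 and 37 of 144 in the Vwf-led cluster. Icam2 had another order, highest in the Sema3g-led cluster (667 and 791 CPM) and lowest in the Vwf-led one (161 and 287 CPM).

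Itga1 and Jam3 ran the other way. Itga1 was at 889.7 and 744 CPM in the Gpihbp1-led and 635 and 645 CPM in the Sema3g-led cluster, and at 169 and 109.9 CPM in the Vwf-led cluster. Jam3 was at 262 and 214 CPM in the Gpihbp1-led cluster and 8.47 and 18.8 CPM in the Vwf-led cluster, and no Jam3 or Mcam UMI was found in the 13 Sham and 41 TBI cells of the Slc38a5-led cluster, which allows up to 98.6 and 26.4 CPM. Itgb4 was highest in the Vwf-led cluster, at 220.1 and 139 CPM, against 24.0 and 38.6 CPM in the Gpihbp1-led one. Pecam1, Esam, Cdh5 and Jam2 were found in all 4 clusters, with Pecam1 at 1545 and 1512 CPM in the Sema3g-led and 559 and 677 CPM in the Slc38a5-led cluster.

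**Figure D2:**
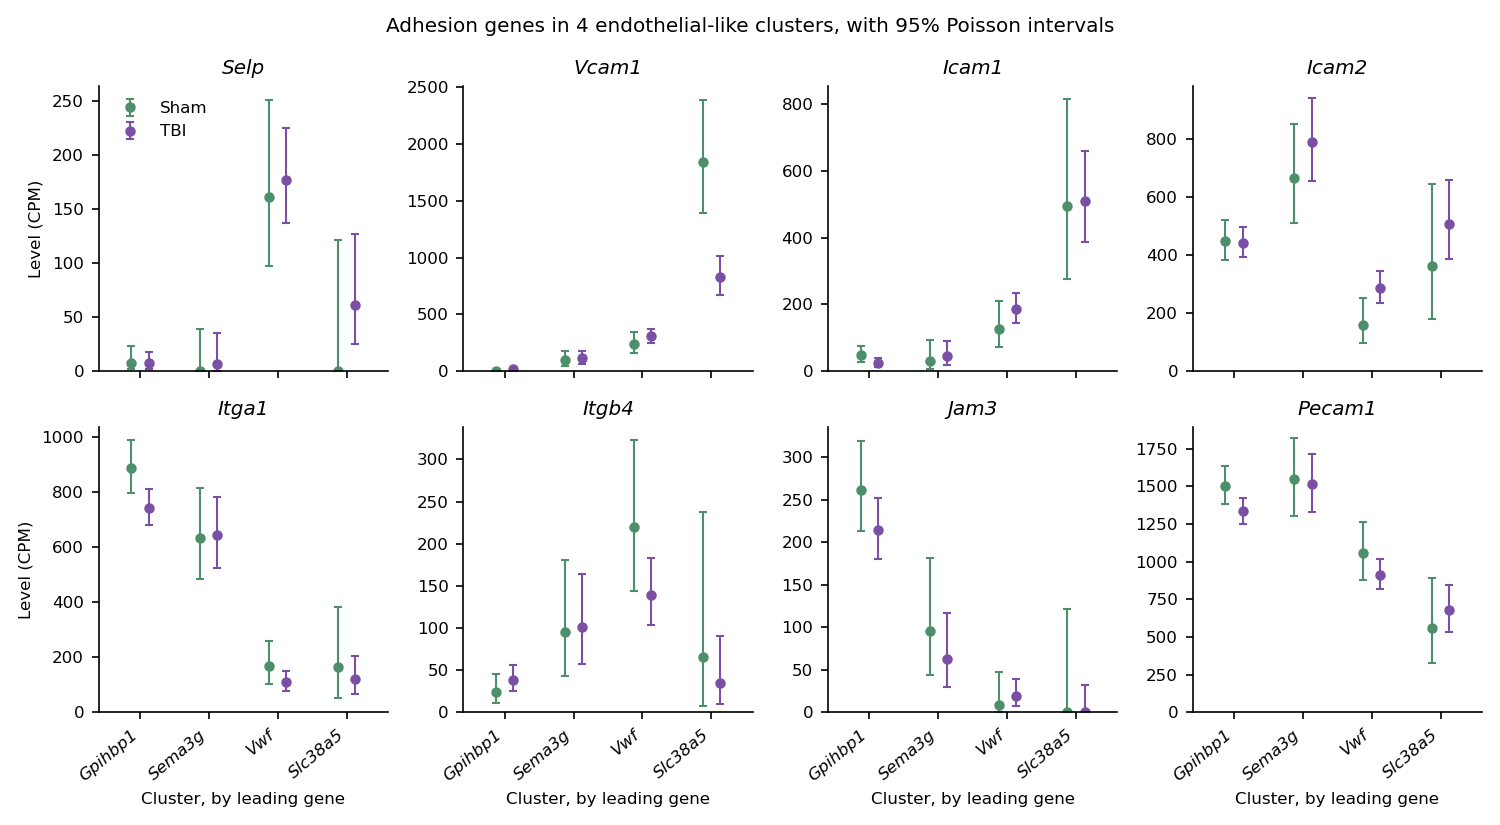
Level (CPM, linear axes from 0) of 8 adhesion genes in the 4 endothelial-like clusters, each named by its leading gene, with Sham in green and TBI in purple. Points are the summed UMIs of a cluster in 1 library and bars are 95% Poisson intervals, which cover counting error only. Selp is highest in the Vwf-led cluster in both libraries (161 and 177 CPM), Vcam1 and Icam1 in the Slc38a5-led cluster, and Itga1 and Jam3 in the Gpihbp1-led cluster. In the Slc38a5-led cluster the top Sham cell for each gene held 40 of the 56 Vcam1 UMIs and 11 of the 15 Icam1 UMIs.

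Macrophage-like cells formed 3 clusters, led by Folr2 and Cd209f (119 and 321 cells), Cx3cr1 and Fcgr4 (107 and 265), and Hpgds and Ccl8 (135 and 196, with a low median depth of 819 and 974 UMIs). Itgam was similar in the Folr2-led and Cx3cr1-led clusters, at 157 and 151 CPM and 134 and 123 CPM, as was Itgb5, at 139.9 and 125 CPM and 121 and 134 CPM. Itgax, by contrast, was at 80.4 and 56.1 CPM in the Cx3cr1-led cluster and had 0 UMIs in Sham and 4 in TBI in the Folr2-led one, and Itgb7 followed the same layout (28.0 and 26.2 CPM against 0 and 2.36 CPM). Vcam1 was reversed, at 135 and 102 CPM in the Folr2-led, 65.1 and 94.2 CPM in the Hpgds-led and 26.8 and 29.3 CPM in the Cx3cr1-led cluster.

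**Figure D3:**
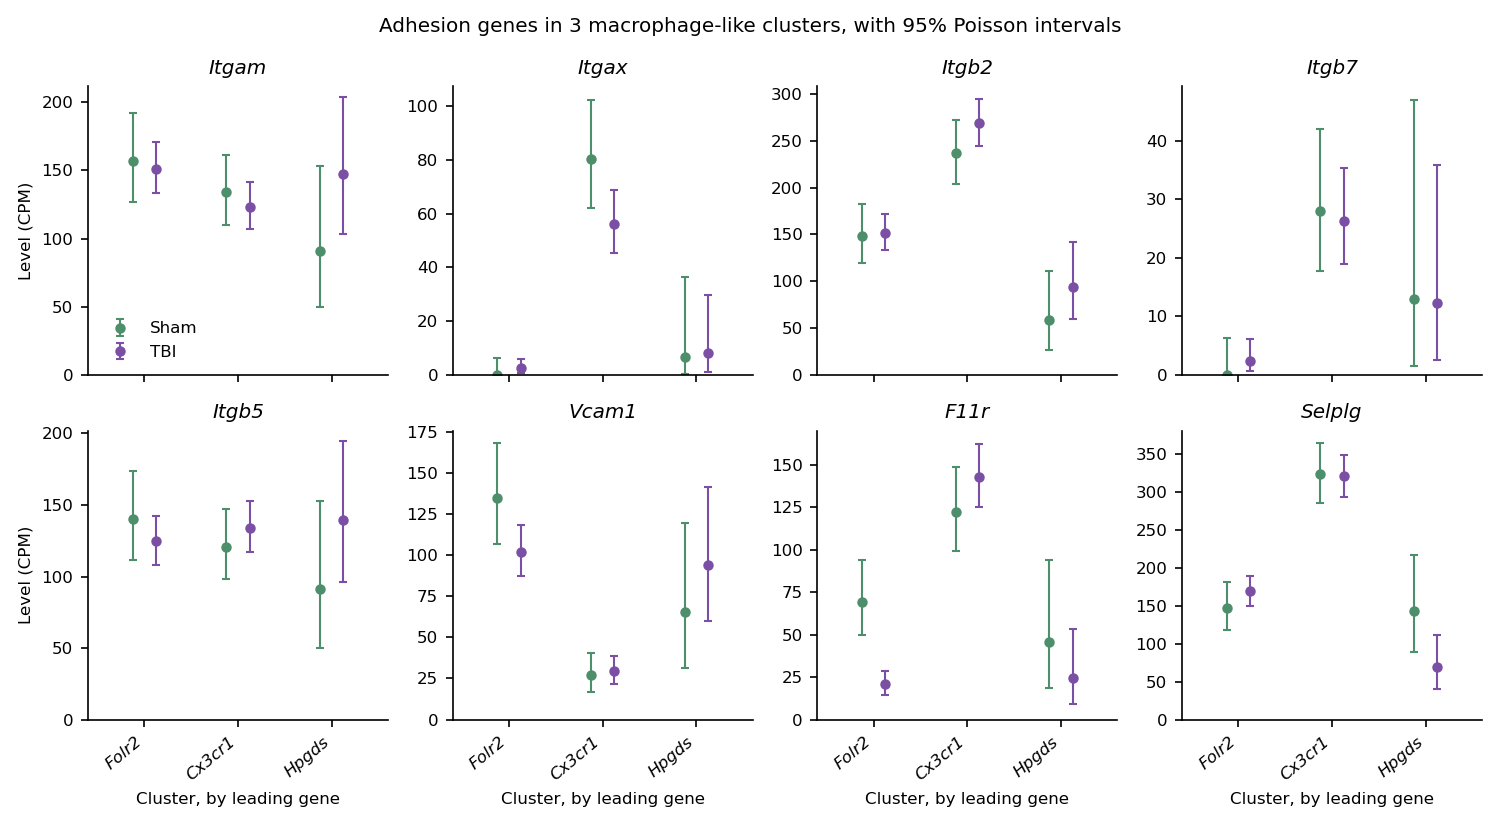
Level (CPM, linear axes from 0) of 8 adhesion genes in the 3 macrophage-like clusters, each named by its leading gene, with Sham in green and TBI in purple. Points are summed UMIs per library and bars are 95% Poisson intervals, which cover counting error only. Itgax and Itgb7 are highest in the Cx3cr1-led cluster and Vcam1 is lowest there, and the bars of Sham (69.1 CPM) and TBI (20.7 CPM) do not overlap for F11r in the Folr2-led cluster.

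Sham and TBI were then compared class by class, to ask how levels of the adhesion genes differed 1 week after injury. A ratio was calculated where a gene was expected to have at least 10 UMIs in the smaller library of a class. Of the 37 genes, 30 passed in at least 1 class. Itga2, Itga7, Itga8, Itga2b, Itgb6, Itgb8 and Sele passed in none. A ratio is called past the fold here where it was at least 1.5-fold and its counting interval lay on 1 side of no difference. This was so in 9 of the 84 comparisons of a gene in a class, 4 higher and 5 lower in TBI, in 9 different genes.

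In macrophage-like cells 0 of 16 genes were past the fold higher in TBI, where 2.67% of all 8739 genes compared were, and 2 were lower, where 1.82% of all genes were. In dendritic-like cells 0 of 15 were past it in either direction (all genes 4.26% higher and 1.99% lower). In B-like cells 2 of 10 were higher and 0 lower (all genes 3.26% and 2.87%). In T- or ILC-like cells 1 of 14 was higher and 0 lower (all genes 2.65% and 2.65%), and in endothelial-like cells 1 of 20 was higher and 0 lower (all genes 3.17% and 2.74%). In fibroblast-like cells 0 of 9 were higher and 3 lower (all genes 2.05% and 5.48%). The median log2 ratio over the adhesion genes was -0.05 in macrophage-like, 0.02 in dendritic-like, -0.03 in B-like, 0.03 in T- or ILC-like, -0.14 in endothelial-like and -0.44 in fibroblast-like cells. Over all genes compared the medians were 0.02, 0.03, 0.02, -0.01, 0.00 and -0.08 in the same order of classes. Some genes counted deeply had narrow intervals that held 0: Itgb2 in macrophage-like cells (log2 0.12, 95% interval -0.08 to 0.32), Itgb7 in T- or ILC-like cells (log2 0.05, 95% interval -0.14 to 0.23), Selplg in dendritic-like cells (log2 0.05, 95% interval -0.10 to 0.20) and Esam in endothelial-like cells (log2 0.04, 95% interval -0.10 to 0.18). Others had intervals apart from 0 at under 1.5-fold, as given below for Pecam1 and Itga1 in endothelial-like and Itgb1 in T- or ILC-like cells.

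**Figure D4:**
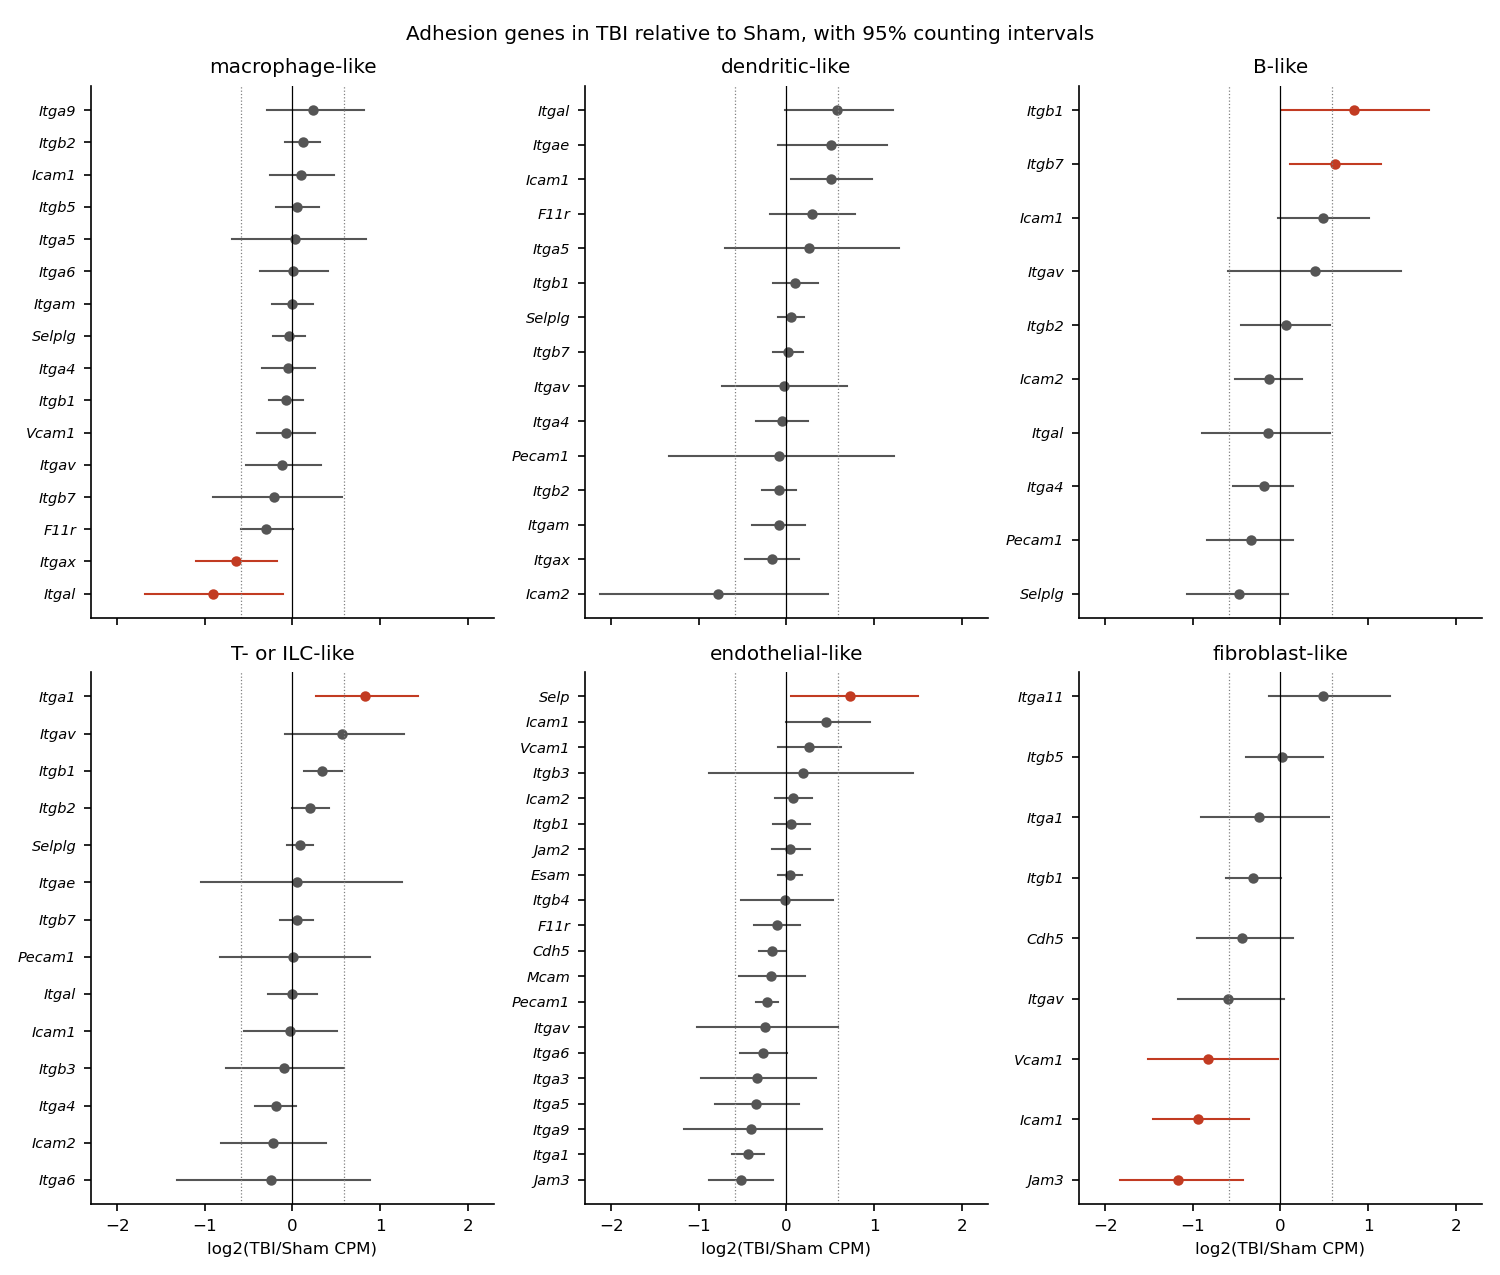
log2 ratio of TBI to Sham CPM for the adhesion genes compared in each of 6 classes, with bars for 95% counting intervals (exact binomial, counting error only) and dotted lines at 1.5-fold. Red marks the 9 ratios past 1.5-fold whose interval leaves out 0, from Jam3 in fibroblast-like cells (-1.17) to Itgb1 in B-like cells (0.84), and most intervals cross 0.

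In endothelial-like cells the 1 gene past the fold was Selp, at 35.6 and 59.9 CPM (log2 0.73, 95% interval 0.05 to 1.50). The Vwf-led cluster, where most Selp UMIs lay, was 18.1% of Sham endothelial-like cells (95% exact binomial interval 13.9 to 22.8) and 24.9% of TBI ones (21.4 to 28.6). Within this cluster the log2 ratio of Selp was 0.11, and its 95% interval (-0.62 to 0.96) held both 0 and the class ratio of 0.73. With the clusters given the same weights in both libraries the Selp ratio for the class was 0.24, under 1.5-fold. The part of the cluster shares in the Selp ratio was not tested. Icam1 (82.6 and 114 CPM, log2 0.45, 95% interval -0.01 to 0.95) and Vcam1 (151 and 180.5 CPM, log2 0.26, 95% interval -0.09 to 0.62) had ratios above 0 with intervals that held it. Itga1 was lower in TBI with an interval apart from 0 but under 1.5-fold (log2 -0.44, 95% interval -0.62 to -0.26), as were Jam3 (log2 -0.52, 95% interval -0.88 to -0.15), Pecam1 (log2 -0.22, 95% interval -0.35 to -0.10) and Cdh5 (log2 -0.16, 95% interval -0.31 to -0.01). These 4 genes were highest in the Gpihbp1-led or Sema3g-led cluster. The Gpihbp1-led cluster was 62.6% of endothelial-like cells in Sham and 52.5% in TBI. Within it, Itga1 (log2 -0.26, 95% interval -0.46 to -0.05) and Pecam1 (log2 -0.17, 95% interval -0.33 to -0.02) were lower in TBI with intervals apart from 0. Jam3 (log2 -0.30, 95% interval -0.67 to 0.09) and Cdh5 (log2 -0.14, 95% interval -0.33 to 0.06) had intervals that held 0. The part of the cluster shares in the class ratios of these genes was not tested. In the Gpihbp1-led cluster 0 of 17 adhesion genes were past the fold in either direction (all genes 2.35% higher and 2.43% lower). In the Vwf-led cluster 1 of 15 was higher and 0 lower (all genes 8.92% and 4.46%). The gene was Icam2, at 161 and 287 CPM (log2 0.80, 95% interval 0.12 to 1.62). In the Sema3g-led cluster 0 of 11 were higher and 1 lower (all genes 3.47% and 2.51%), Itgb1, at 719.6 and 468 CPM (log2 -0.62, 95% interval -1.11 to -0.12). Of its 68 Sham UMIs 1 cell held 11, and without the top cell of each library its interval held 0 (-1.02 to 0.05). In the small Slc38a5-led cluster 0 of 8 were higher and 2 lower (all genes 4.71% and 7.53%). They were Itga6, at 624 and 193 CPM (log2 -1.70, 95% interval -2.64 to -0.73), and Vcam1, whose ratio turned from -1.16 to 0.21 without the top cell of each library. These comparisons within clusters, and those below, were added after the class levels had been seen.

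In T- or ILC-like cells Itga1, whose chain marks lymphocytes that stay in tissue, was higher in TBI, at 41.4 CPM (95% interval 29.0 to 57.3, 36 UMIs) in Sham and 74.0 CPM (95% interval 60.0 to 90.3, 97 UMIs) in TBI (log2 0.83, 95% interval 0.27 to 1.43). It was found in 27 of 265 and 62 of 380 cells, with at most 5 UMIs in a cell. B-like cells, which should lack it, held Itga1 in 0 of 371 Sham and 1 of 289 TBI cells, at median depths of 3082 and 2662 UMIs against 3249 and 3166 UMIs. The T cell cluster held 35 of the 36 and 95 of the 97 UMIs, at 64.8 and 111 CPM (log2 0.76, 95% interval 0.20 to 1.38), and Itga1 was the 1 gene of 13 past the fold there (all genes 2.93% higher and 3.19% lower). No adhesion gene was past the fold among 10 in the innate lymphoid cluster (all genes 1.46% and 2.42%) or 4 in the Trdv4-led cluster (all genes 1.53% and 4.59%). Itgb1, its partner, was at 310.4 and 394 CPM (log2 0.34, 95% interval 0.13 to 0.56), which is under 1.5-fold. Cells with UMIs of both were 6.04% in Sham and 12.9% in TBI. Without the hemoglobin filter, which changed the clusters, the Itga1 ratio was 0.27.

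In B-like cells Itgb7 was at 53.7 CPM (95% interval 41.1 to 69.0, 61 UMIs) in Sham and 82.8 CPM (95% interval 64.3 to 105, 68 UMIs) in TBI (log2 0.62, 95% interval 0.10 to 1.15) and Itgb1 at 20.3 CPM (95% interval 12.8 to 30.4, 23 UMIs) in Sham and 36.5 CPM (95% interval 24.7 to 52.2, 30 UMIs) in TBI (log2 0.84, 95% interval 0.02 to 1.70), both higher in TBI. The Itgb1 ratio rested on few UMIs, and its interval included 0 once the cell with the most UMIs in each library was left out (-0.11 to 1.68). With a mean over cells in place of summed UMIs the Itgb7 ratio was 0.34, under 1.5-fold. Itga4, the chain that pairs with both, was at 163 and 142 CPM (log2 -0.19, 95% interval -0.54 to 0.15). In dendritic-like cells the largest positive ratios among the genes compared, Itgal (log2 0.57, 95% interval -0.02 to 1.21), Itgae (log2 0.51, 95% interval -0.09 to 1.15) and Icam1 (log2 0.50, 95% interval 0.05 to 0.97), were each under 1.5-fold.

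In macrophage-like cells Itgax was at 42.8 and 27.4 CPM (log2 -0.65, 95% interval -1.11 to -0.17) and Itgal at 17.2 and 9.22 CPM (log2 -0.91, 95% interval -1.68 to -0.11), both lower in TBI. The Itgax UMIs lay almost wholly in the Cx3cr1-led cluster, where its levels were 80.4 and 56.1 CPM (log2 -0.52, 95% interval -0.99 to -0.04), which is under 1.5-fold, and without the top cell of each library that interval was -0.97 to 0.02. For the class, the Itgax ratio was -0.04 with cells thinned to 1000 UMIs, -0.39 with the same cluster weights in both libraries and -0.53 with no hemoglobin limit, each under 1.5-fold. Itgal had 27 UMIs in Sham and 33 in TBI, of which 1 Sham cell held 6. Without the top cell of each library its interval was -1.47 to 0.24, and with cells thinned to 1000 UMIs its ratio turned to 0.54. Itgam, Itgb2, Itga4 and Itgb1 in the same cells all had intervals that held 0.

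Within the Folr2-led macrophage cluster 1 of 12 adhesion genes was past the fold, F11r, lower in TBI, and 0 were higher (all genes 3.16% lower and 2.19% higher). It is described in full because of this value. F11r encodes JAM-A, a junction protein that also serves leukocytes as a ligand of LFA-1. It was at 69.1 CPM (49.6 to 93.8, 41 UMIs) in Sham and 20.7 CPM (14.4 to 28.7, 35 UMIs) in TBI (log2 -1.74, 95% interval -2.44 to -1.06). An F11r UMI was found in 20 of 119 cells in Sham and 23 of 321 in TBI, at median depths of 4405 and 4815 UMIs, with at most 4 UMIs in a cell of either library. For comparison, it was found in 0 of 371 Sham and 1 of 289 TBI B-like cells, at median depths of 3082 and 2662 UMIs. Without the top cell of each library the ratio was -1.76 (-2.51 to -1.04), and without predicted doublets -1.77 (-2.48 to -1.07). At the finer clustering (resolution 1.6 in place of 0.8), a cluster led by Ccl12 and Ccl7 (54 and 201 cells) held 40 and 33 F11r UMIs, with 121 CPM in Sham and 27.1 CPM in TBI (log2 -2.15, 95% interval -2.87 to -1.45). In the Cx3cr1-led cluster F11r was instead at 122 and 143 CPM (log2 0.22, 95% interval -0.12 to 0.58). Cx3cr1 itself was also lower in the TBI cells of the Folr2-led cluster, at 745 and 497 CPM (log2 -0.59), while Ccr2 was higher, at 148 and 219.7 CPM (log2 0.56, 95% interval 0.23 to 0.92), and Fcgr4 was at 38.8 and 59.1 CPM (log2 0.58, 95% interval -0.06 to 1.33). In the finer Ccl12-led cluster Cx3cr1 was at 941 and 518 CPM (log2 -0.86, 95% interval -1.06 to -0.66). Ccr2 was there at 289 and 298 CPM (log2 0.04, 95% interval -0.29 to 0.38). Fcgr4 was there at 103 and 83.7 CPM (log2 -0.31, 95% interval -0.87 to 0.31). The part of Cx3cr1, Ccr2 and Fcgr4 in the F11r difference was not tested. In the Cx3cr1-led cluster 1 of 16 genes was past the fold, Itga9, at 14.6 and 32.3 CPM (12 and 53 UMIs, log2 1.10, 95% interval 0.22 to 2.18), and 0 were lower (all genes 2.82% higher and 2.17% lower). In the Folr2-led cluster Itga9 was instead at 40.5 and 28.9 CPM (log2 -0.50, 95% interval -1.22 to 0.29). In the shallow Hpgds-led cluster 0 of 7 were higher and 1 lower (all genes 4.52% and 4.43%), Selplg, whose ratio of -1.03 became -0.16 without the top cell of each library.

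In fibroblast-like cells 3 genes were lower in TBI. Jam3 was at 93.6 CPM (95% interval 60.5 to 138, 25 UMIs) in Sham and 42.0 CPM (95% interval 32.7 to 53.2, 69 UMIs) in TBI (log2 -1.17, 95% interval -1.83 to -0.43), Icam1 at 142 and 75.0 CPM (log2 -0.94, 95% interval -1.46 to -0.36) and Vcam1 at 78.6 and 45.1 CPM (log2 -0.83, 95% interval -1.52 to -0.03). The Sham values came from 66 cells. Vcam1 was found in 9 of them, and 1 cell held 10 of the 21 UMIs. Without the top cell of each library the ratios were -0.07 for Vcam1 (-0.94 to 1.06), -0.69 for Icam1 (-1.26 to -0.04) and -1.06 for Jam3 (-1.75 to -0.27). The top cell was taken from the sum of each gene and not from the class total. This moved the median of all fibroblast-like genes from -0.08 to 0.09, so part of each shift is not particular to the gene. With cells thinned to 1000 UMIs the Icam1 ratio was -0.40, under 1.5-fold. The lower level of Vcam1 in TBI rested largely on 1 Sham cell, while for Icam1 and Jam3 the intervals stayed below 0 without the top cells. At the finer clustering, Jam3 was at 61.4 and 33.5 CPM in the Myoc-led cluster and 112 and 52.4 CPM in the Gpx3-led one, and Icam1 at 161 and 83.1 CPM and 158 and 64.0 CPM, each lower in TBI. In the unnamed Ptgds-led cluster Icam1 was at 30.6 and 63.0 CPM, from 1 and 16 UMIs. Itgb5 (log2 0.02, 95% interval -0.40 to 0.48), Itga11 (log2 0.49, 95% interval -0.13 to 1.25) and Cdh5 (log2 -0.44, 95% interval -0.95 to 0.14) had intervals that held 0. Fibroblast-like cells were 3.23% of Sham and 11.8% of TBI cells. The part of this difference in the levels was not tested.

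The machinery around these receptors was looked at through 4 lists, which like the 37 genes were drawn up with earlier results of these data known. The lists are described by their counts, pooled over the 6 classes. By class, the shares of all genes past the fold ran from 2.05% to 4.26% higher and from 1.82% to 5.48% lower in TBI. No share of all genes was pooled over the classes in the same way, so the counts are a description only. Of 35 comparisons of the 20 other adhesion receptors in the 6 classes, 2 were past the fold higher and 3 lower. The largest ratio among those higher was Nectin2, a junction protein, in endothelial-like cells, at 34.0 CPM in Sham and 73.6 CPM in TBI (21 and 97 UMIs, log2 1.09, 95% interval 0.42 to 1.87). Of 43 comparisons of the 12 enzymes of selectin ligand synthesis in the 6 classes, 0 were past the fold higher and 1 lower. The gene lower was the fucosyltransferase Fut4 in endothelial-like cells, at 43.7 CPM in Sham and 23.5 CPM in TBI (27 and 31 UMIs, log2 -0.90, 95% interval -1.69 to -0.10).

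Of 161 comparisons of the 39 genes of integrin activation and linkage in the 6 classes, 3 were past the fold higher and 5 lower. The largest ratios were Coro1a, a leukocyte actin regulator, in endothelial-like cells, at 8.10 CPM in Sham and 28.1 CPM in TBI (5 and 37 UMIs, log2 1.67, 95% interval 0.44 to 3.50), and Rasgrp2, the exchange factor that switches on Rap1 upstream of integrins, in dendritic-like cells, at 16.6 CPM in Sham and 7.57 CPM in TBI (23 and 13 UMIs, log2 -1.11, 95% interval -2.24 to -0.09). Of the Coro1a UMIs in TBI, 1 cell held 14, and without the top cells the interval was -0.12 to 3.42. Rasgrp2 was also lower in T- or ILC-like cells, at 59.8 CPM in Sham and 33.6 CPM in TBI (52 and 44 UMIs, log2 -0.83, 95% interval -1.45 to -0.22). Of 46 comparisons of the 23 matrix ligands of integrins in the 6 classes, 4 were past the fold higher and 5 lower. Thbs1 (thrombospondin-1) in macrophage-like cells was at 5.74 CPM in Sham and 19.3 CPM in TBI (9 and 69 UMIs, log2 1.68, 95% interval 0.74 to 2.94). Spp1 (osteopontin, a ligand of alpha-v and alpha-4 integrins) in fibroblast-like cells was at 3271 CPM in Sham and 173 CPM in TBI (874 and 284 UMIs, log2 -4.24, 95% interval -4.44 to -4.05), but 1 Sham cell held 859 of the 874 UMIs, and without the top cell of each library the ratio turned to 1.07 (0.35 to 1.98). In dendritic-like cells Spp1 was higher in TBI, at 10.1 CPM in Sham and 32.0 CPM in TBI (14 and 55 UMIs, log2 1.62, 95% interval 0.80 to 2.62), and Fn1 (fibronectin) lower, at 38.3 CPM in Sham and 14.0 CPM in TBI (53 and 24 UMIs, log2 -1.44, 95% interval -2.22 to -0.73).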

How the data were processed

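UMI counts per gene and cell were made by the authors with Cell Ranger (2.1.1 in the submitters' processing notes, 3.1.0 in the matrix header, genome mm10) and deposited as filtered matrices of 2699 barcodes (Sham) and 4349 (TBI) (annotation release: not stated in the labels, paper or file headers). The 37 members and all lists were chosen with earlier results of these data known.

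Barcodes were kept at 150 to 5000 genes, with mitochondrial UMIs no higher than 20% and hemoglobin UMIs no higher than 5%. Of all barcodes, 604 in Sham and 431 in TBI were over the hemoglobin limit, some of which also failed another limit. The cells left differ in number from those the study states. The kept cells held 7866611 and 13940740 UMIs. They were clustered with Python 3.11.15, scikit-learn 1.9.0 and leidenalg 0.10.2 (2000 variable genes without the members, 20 principal components, 20 neighbours, resolution 0.8, no batch correction). Of 27 clusters, 25 were named, each from at least 3 fixed markers among its 100 genes of highest fold. The number 100 was set after the clusters were seen and before the members were read, and it gave the cluster led by Slc38a5 and Slco1a4 its endothelial name. Names rebuilt in this way can differ from the study's. By likeness to simulated doublets, 33 Sham cells (1.62%) and 114 TBI cells (3.02%) were marked and kept in the main values. These shares were set in advance at 0.8% per 1000 cells of a library and are not measured doublet rates.

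With 1 library per group no test was made. Summed UMIs per class were scaled to CPM with exact Poisson 95% intervals, and log2 ratios (0.5 added to each sum) were given exact binomial 95% intervals, where at least 10 UMIs were expected in the smaller library. A ratio is past the fold at 1.5-fold with its interval on 1 side of no difference. PCR duplicates are collapsed by UMI, and intervals and the floor of 3 counts cover counting error only. The ratio was checked on simulated counts with known folds. These were independent Poisson sums, as the intervals assume, so the check does not cover genes whose UMIs are clumped in single cells. Members were named in full by highest level within a role and by passing the fold in a class, and listed pathway genes by the largest ratio in each direction, of which 1 is not reported here. Rasgrp2 in T- or ILC-like cells, Spp1 and Fn1 in dendritic-like cells, the calls within clusters and the promoter motifs were chosen after values were seen.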

Additional observations from a re-analysis of the deposited data

How the results depend on the processing

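The main counts were 4 ratios past 1.5-fold higher and 5 lower in TBI. Of the alternative values computed, which were counts of genes as well as ratios, 244 were labelled the same, 42 moved and 4 reversed. A ratio was labelled the same where it kept its direction and stayed within the main counting interval. A count was labelled the same where it was equal to the main count or within 1.5-fold of it, which includes 0 against 0. Over all 6 classes the count higher was 2 with no hemoglobin limit, 1 with cells thinned to 1000 UMIs and 2 with at least 30 UMIs, and the count lower was 2 with a mean over cells, 3 with no hemoglobin limit, 0 with thinning, 1 with at least 30 UMIs and 3 without the cell with most UMIs. By class, the count higher became 2 in macrophage-like and 2 in dendritic-like cells with a mean over cells, and 1 in dendritic-like cells with 1 UMI in each library, with members among the variable genes, or without the top cell. In B-like cells it was 0 with a mean over cells or thinning and 1 without doublets, with no hemoglobin limit, with at least 30 UMIs or without the top cell. It was 0 in T- or ILC-like cells with no hemoglobin limit or thinning, 0 in endothelial-like cells with at least 30 UMIs or the same cluster weights and 3 without the top cell, and 1 in fibroblast-like cells without doublets or with the unnamed cluster led by Snhg11 and Foxp2 joined to them. The count lower in macrophage-like cells was 0 with a mean over cells, no hemoglobin limit or thinning, and 1 with at least 30 UMIs, members among the variable genes, resolution 1.6, the same cluster weights or without the top cell. It was 1 in B-like cells with a mean over cells or without doublets, and in fibroblast-like cells 1 with a mean over cells, 0 with thinning or at least 30 UMIs and 5 with 1 UMI in each library. Thinning and the stricter minimum tested fewer genes, and for the other settings the cause was not tested. The share of all genes past the fold was not calculated under the alternative settings. A changed count can therefore not be read as a change particular to the adhesion genes. Reversed ratios were Itgal in macrophage-like cells (0.54 with thinning), Vcam1 in fibroblast-like cells (0.43 with a mean over cells), and, without the top cell, Vcam1 in the Slc38a5-led cluster (0.21) and Spp1 in fibroblast-like cells (1.07). A mean over cells moved the median of all genes in dendritic-like cells to 0.12 on the log2 scale. Leaving out the top cell of each gene, with class totals unchanged, moved it to 0.04 in endothelial-like and 0.09 in fibroblast-like cells. The class in which a gene was highest also changed for some genes. With thinning these were Itga8, Itgav, Itga2b, Itgb5, Itgax, Selplg and Vcam1, and with a mean over cells Itga8, Itgav, Itga2b and Itgb3. The highest class also changed for Itga2b without predicted doublets, Itgax with no hemoglobin limit, Itga8 at resolution 1.6, and Itgb3 and Itga9 without the top cell.

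The settings within clusters, for the pathway genes and for the joined cluster were added after the data were seen. No paired analysis was possible because each group is 1 library. Depth limits the genes with few UMIs: at 66 Sham cells, fibroblast-like ratios could be formed for 9 of the 37 genes.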

Other observations

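Some adhesion genes had levels in cells that entered no comparison. In the unnamed cluster led by Snhg11 and Foxp2 (54 and 310 cells in Sham and TBI), Icam1 was at 105 and 93.3 CPM (10 and 56 UMIs), Cdh5 at 94.9 and 68.3 CPM (9 and 41 UMIs) and Itga8 at 31.6 and 26.7 CPM (3 and 16 UMIs). In the unnamed cluster led by Cspg5 and Cntnap2 (9 and 47 cells), Itgb8 was at 76.3 and 33.0 CPM (1 and 3 UMIs). Pericyte-like cells held Cdh5 at 186 and 24.1 CPM (8 and 3 UMIs) and Itga9 at 69.9 and 32.2 CPM (3 and 4 UMIs), from 23 and 72 cells. Migratory dendritic-like cells had high Selplg and Icam1 but Itgb2 at 32.2 and 14.2 CPM (6 and 3 UMIs) and Itgb7 at 16.1 and 23.7 CPM (3 and 5 UMIs), against 283 and 267 CPM and 374 and 378 CPM in the dendritic-like class, while Itga4 was at 295 and 195 CPM (55 and 41 UMIs). Proliferating-like cells held Selplg at 371 and 406 CPM (88 and 145 UMIs) and Itgb7 at 156 and 210.0 CPM (37 and 75 UMIs). No test was made of these values.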
